A study of Mus musculus with 4 samples.

Results

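A set of 10 genes that mark or serve regulatory T cells were followed in CD4+ spleen cells of mice with and without T cell lymphoma. They are Foxp3, Il2ra, Ikzf2, Ikzf4, Ebi3, Gpr83, Nrp1, Lrrc32, Il10 and Capg. The genes were chosen by name, each through the probe set whose annotation gives that single gene symbol, and all 10 were found among 19938 measured genes, each with 1 probe set. The samples were 2 arrays of CD4+ splenocytes from wild type C57BL/6 mice and 2 arrays of CD4+ lymphoma cells from the spleens of C57BL/6 mice with a homozygous gene trap in Tet2, an enzyme that oxidises methylated cytosine in DNA. Cells of both groups were collected from whole spleen on a magnetic column through CD4, with no further sort for regulatory T cells. Genotype and tumour differ together between the groups and cannot be told apart, and the sources used here give no ages, purity or number of animals, so p-values measure only the spread between these samples.

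Regulatory T cells are CD4+ cells that restrain other lymphocytes. Their lineage factor FOXP3 acts with partners such as the Ikaros family proteins Helios (Ikzf2) and Eos (Ikzf4). They carry the high-affinity chain of the interleukin 2 receptor, CD25 (Il2ra), depend on interleukin 2 signalling through STAT5, and act on other cells through interleukin 10, surface-held TGF-beta and other routes. None of these genes belongs to regulatory T cells alone: activated T cells, B cells, macrophages and dendritic cells express several of them.

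Promoter sequences from RefSeq (GRCm38.p6; 250 bases before and 50 after a start site) were matched for 6 of the 10 genes. The windows of the 3 members that passed the test of difference, Ebi3, Capg and Gpr83, are shown because these members moved while most did not, and the first of both Foxp3 windows because Foxp3 defines the lineage. Capitals mark CpG dinucleotides, the sites at which DNA methylation and TET enzymes act. All 4 lie on the plus strand and are written 5′ to 3′, at chr17:55952373-55952672, chr6:72549397-72549696, chr9:14859960-14860259 and chrX:7579426-7579725.
Ebi3: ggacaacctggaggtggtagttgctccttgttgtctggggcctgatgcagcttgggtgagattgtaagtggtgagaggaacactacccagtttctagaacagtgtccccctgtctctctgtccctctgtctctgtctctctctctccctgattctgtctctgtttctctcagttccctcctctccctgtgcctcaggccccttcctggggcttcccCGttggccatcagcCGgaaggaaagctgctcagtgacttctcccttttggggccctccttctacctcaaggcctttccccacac
Capg: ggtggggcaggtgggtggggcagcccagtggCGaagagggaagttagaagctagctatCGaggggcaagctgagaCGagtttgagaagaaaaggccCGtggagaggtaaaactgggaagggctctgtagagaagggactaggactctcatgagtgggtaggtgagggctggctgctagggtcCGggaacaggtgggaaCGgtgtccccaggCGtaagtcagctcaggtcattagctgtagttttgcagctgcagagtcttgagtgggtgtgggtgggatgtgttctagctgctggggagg
Gpr83: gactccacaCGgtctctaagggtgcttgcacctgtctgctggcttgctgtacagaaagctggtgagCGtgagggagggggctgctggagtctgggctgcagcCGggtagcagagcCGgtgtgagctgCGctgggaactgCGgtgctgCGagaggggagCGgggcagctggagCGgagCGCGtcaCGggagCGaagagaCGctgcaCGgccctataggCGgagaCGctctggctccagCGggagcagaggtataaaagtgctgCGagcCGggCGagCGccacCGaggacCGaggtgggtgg
Foxp3: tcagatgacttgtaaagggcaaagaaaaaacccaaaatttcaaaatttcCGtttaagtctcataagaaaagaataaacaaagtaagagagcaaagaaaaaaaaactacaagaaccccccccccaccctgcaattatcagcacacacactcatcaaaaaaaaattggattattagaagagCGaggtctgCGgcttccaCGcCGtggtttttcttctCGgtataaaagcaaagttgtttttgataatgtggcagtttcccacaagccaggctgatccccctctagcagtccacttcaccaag

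The Ebi3 window held 2 CpG, and 14.1% of 32851 RefSeq windows held fewer. The Capg window held 7, which is also the median of all windows, and the Foxp3 window 6. The Gpr83 window held 24, with 80% of windows holding fewer. The motifs were searched on both strands: TATAAA (the TATA box), TGANTCA (AP-1), TTCNNNGAA (STAT) and TGTTTAC (forkhead). TATAAA was found in the Foxp3 window, beginning 32 bases before the start site, and in the Gpr83 window, beginning 1 base before it, against 13.6% of all windows. None of the other motifs was in any of the 4 windows, while 7.81% of all windows held TGANTCA, 8.3% held TTCNNNGAA and 3.65% held TGTTTAC. The second Foxp3 window held 1 TTCNNNGAA match. No DNA methylation values were used here, so these are properties of the reference sequence only.

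Over the 10 genes, Ebi3 and Capg rose in lymphoma and Gpr83 fell, at an adjusted p under 0.05 (limma, Benjamini-Hochberg over all 19938 genes). In the same fit 1.82% of all genes rose and 2.46% fell. The other 7 genes did not pass. Both lymphoma arrays lay above both wild type arrays for 3 genes (Ebi3, Capg and Ikzf2) and below them for 1 (Gpr83), where 20.6% and 23.5% of all genes did so. The median log2 difference of the 10 genes was 0.09, with 5 positive and 5 negative, beside -0.04 over all genes. Of these genes, 5 differed between the lymphoma arrays by more than 1 log2 unit. Markers of B cells, macrophages and dendritic cells were lower on the lymphoma arrays beside these changes and beside those of every list described further on, with summed B cell marker intensities of 2633 to 2841 against 12514 to 18742.

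**Figure D1:**
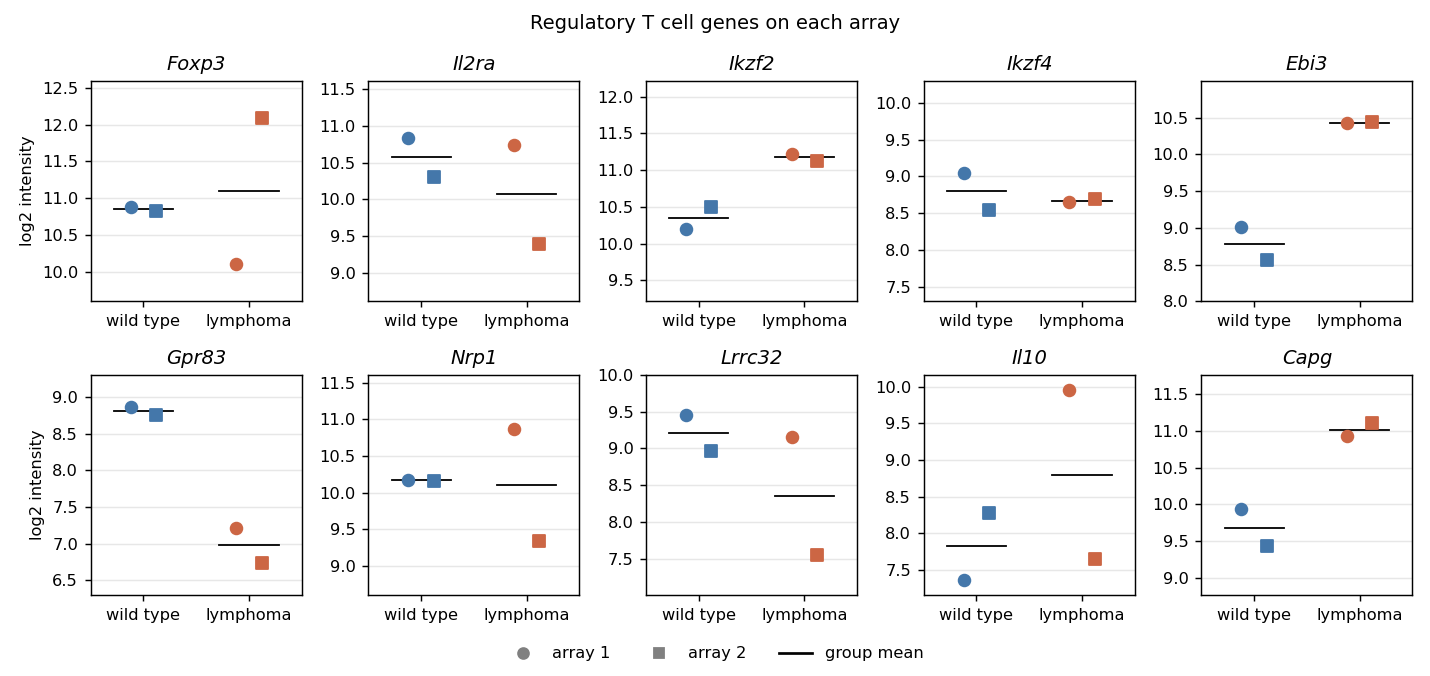
Log2 intensity of each gene on the 4 arrays (circle, array 1; square, array 2; bar, group mean; each panel spans the same log2 range). Ebi3, Capg and Ikzf2 have both lymphoma arrays above both wild type arrays and Gpr83 both below, as 20.6% and 23.5% of all genes do. Foxp3, Il2ra, Nrp1, Lrrc32 and Il10 have lymphoma arrays that lie more than 1 log2 unit apart.

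Foxp3, the lineage factor, had intensities of 1882 and 1809 in wild type and of 1099.9 and 4344 in lymphoma, where paired values here and below are those of arrays 1 and 2. The wild type arrays were close together, and 1 lymphoma array lay below and the other above both of them. The means were 10.85 ± 0.04 (SD, n = 2) and 11.09 ± 1.40 (SD, n = 2) on the log2 scale. Their difference of 0.24 (SE 0.58, 95% interval -1.17 to 1.66, adjusted p = 0.92 in limma) changed sign to -0.22 when expressed relative to T cell genes. The mean therefore describes neither lymphoma array. Lymphoma array 2 was 3.95-fold above lymphoma array 1, a gap exceeded by 0.893% of all genes. The 8 measured CD4 T cell markers differed by between -0.75 (Cd247) and 0.41 (Cd3d) log2 units from lymphoma array 1 to lymphoma array 2.

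Ikzf2, which encodes Helios, had 1178 and 1446 in wild type and 2391 and 2232 in lymphoma. Both lymphoma values were higher and close to each other. The log2 difference of 0.82 (SE 0.18, 95% interval 0.38 to 1.26) had an adjusted p of 0.069 in limma and did not pass. It passed with genes below the median level left out (0.045), and the difference was 0.87 without lymphoma array 2. Relative to T cell genes the difference was 0.36 (adjusted p = 0.22). Ikzf4, which encodes Eos, had 531 and 373 in wild type and 402 and 412 in lymphoma, so that both lymphoma values lay between the wild type ones. Its difference was -0.13 (95% interval -0.67 to 0.42, adjusted p = 0.88 in limma), and it was 0.13 without wild type array 1.

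Il2ra, the CD25 chain that gives the interleukin 2 receptor its high affinity, had 1826 and 1270.5 in wild type and 1716 and 672 in lymphoma. Lymphoma array 1 lay within the wild type range and lymphoma array 2 below it. The difference was -0.50 (SE 0.44, 95% interval -1.58 to 0.57, adjusted p = 0.72 in limma). Leaving out lymphoma array 1 gave -1.18, and leaving out array 2 gave 0.17. The array with the highest Foxp3 value was therefore the one with the lowest Il2ra value.

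Gpr83, a G protein-coupled receptor known as a marker of regulatory T cells in mice, had 464 and 429.7 in wild type against 148 and 107 in lymphoma. The groups did not overlap. The lymphoma values lay near the median of all probe sets on those arrays (138 and 130), and no detection calls were used. Gpr83 fell 3.54-fold, by 1.83 log2 units (SE 0.22; limma adjusted p = 0.0099), from 8.80 ± 0.08 (SD, n = 2) to 6.98 ± 0.33 (SD, n = 2). The difference was between -1.59 and -2.06 with either lymphoma array left out, and -2.29 relative to T cell genes.

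Nrp1, the semaphorin and VEGF co-receptor neuropilin 1 that is carried by thymus-derived regulatory T cells and by plasmacytoid dendritic cells, had 1159 and 1143 in wild type. On the lymphoma arrays it had 1872 and 649, above and below the wild type pair. The difference of -0.06 (95% interval -1.19 to 1.06, adjusted p = 0.98 in limma) became 0.014 with array medians subtracted. Lrrc32 encodes GARP, which holds latent TGF-beta at the surface of activated regulatory T cells. It had 699 and 499 in wild type and 571 and 188 in lymphoma, with lymphoma array 1 inside the wild type range. The difference was -0.85 (SE 0.50, 95% interval -2.07 to 0.37, adjusted p = 0.54 in limma). Leaving out lymphoma array 1 gave -1.65 and leaving out array 2 gave -0.05, so the size rested on array 2.

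Ebi3 encodes the beta chain shared by interleukin 27 and interleukin 35. It had 514 and 377 in wild type and 1378 and 1389.8 in lymphoma. The lymphoma arrays were nearly equal and far above both wild type arrays. Ebi3 rose 3.14-fold, by 1.65 log2 units (SE 0.21; limma adjusted p = 0.012), from 8.78 ± 0.32 (SD, n = 2) to 10.43 ± 0.01 (SD, n = 2), and by 1.19 relative to T cell genes. The alpha chains that pair with it did not pass the test on the unscaled values. Il12a, the interleukin 35 partner, had a difference of -0.80 (adjusted p = 0.15 in limma), with 225 and 154 in wild type and 115 and 99.8 in lymphoma. It was -1.26 relative to T cell genes (adjusted p = 0.0074 in limma), a scaling that called 1961 of all 19938 genes lower. Without lymphoma array 1 it was -0.90. Both lymphoma values lay below the median of all probe sets on their arrays (138 and 130). Il27, the interleukin 27 partner, had a difference of -0.16 (adjusted p = 0.84 in limma) with overlapping groups. Both partners were named after their values were seen.

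Il10, an interleukin that restrains macrophages and dendritic cells, had 166 and 310.1 in wild type and 989 and 202 in lymphoma. Lymphoma array 1 was the single high array, and lymphoma array 2 lay between the wild type values. The difference was 0.98 (SE 0.72, 95% interval -0.76 to 2.72, adjusted p = 0.65 in limma). Leaving out lymphoma array 2 gave 2.13, and leaving out array 1 gave -0.17. The lymphoma arrays differed 4.90-fold, a gap exceeded by 0.597% of all genes. The array with high Il10 was the one with low Foxp3.

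Capg encodes an actin filament capping protein of the gelsolin family, found in macrophages and in effector regulatory T cells. It had 985 and 688 in wild type and 1958 and 2198 in lymphoma, with no overlap. Capg rose 2.52-fold, by 1.33 log2 units (SE 0.22; limma adjusted p = 0.029), from 9.69 ± 0.37 (SD, n = 2) to 11.02 ± 0.12 (SD, n = 2), and by 0.87 (adjusted p = 0.035) relative to T cell genes. The call was lost when all probe sets were tested (adjusted p = 0.075).

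**Figure D2:**
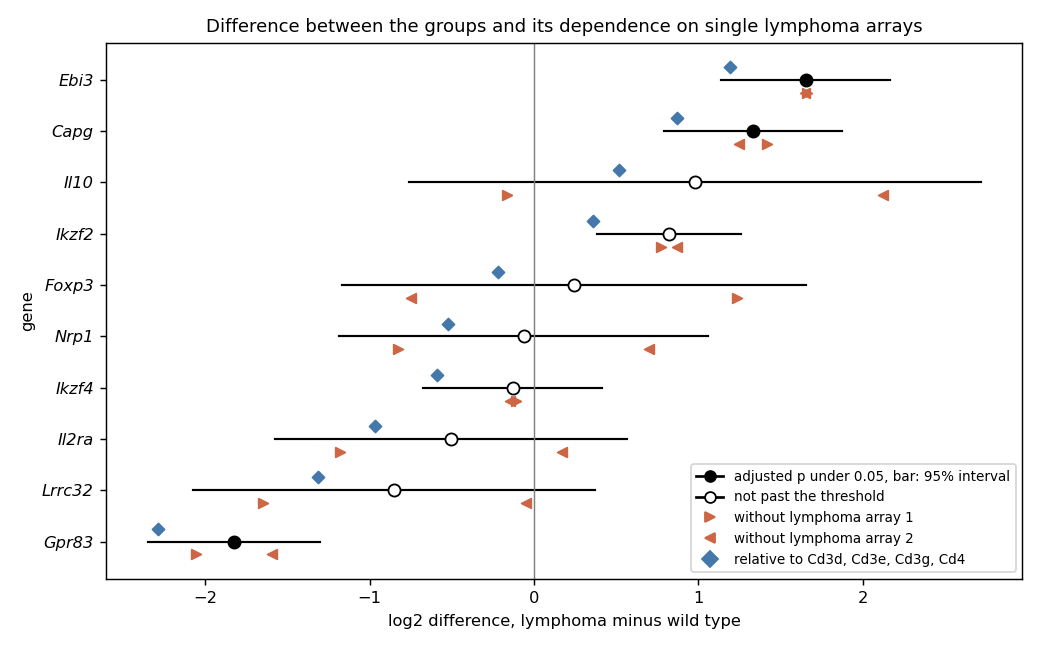
Log2 difference of each gene between lymphoma and wild type (circle, filled where the adjusted p was under 0.05; bar, 95% interval), with the values without either lymphoma array (triangles) and relative to T cell genes (diamonds). Ebi3, Capg and Gpr83 stay on their side of 0 in all of these, while for Foxp3, Il2ra, Nrp1 and Il10 the triangles lie on opposite sides of 0, and the Foxp3 diamond lies below 0.

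The calls depended on which arrays set the spread. Without wild type array 1 or 2, none of the 10 genes passed in limma, and 0 of all genes did. With wild type array 1 left out and then array 2, the differences were 1.88 and 1.43 for Ebi3. They were 1.59 and 1.075 for Capg and -1.77 and -1.88 for Gpr83. Ebi3 had adjusted p-values of 0.110 and 0.111 in these fits, Capg 0.126 and 0.189, and Gpr83 0.151 and 0.117. Without lymphoma array 1 the difference was 1.24 for Foxp3, -1.18 for Il2ra, -0.83 for Nrp1 and -1.65 for Lrrc32. Without lymphoma array 2 these were -0.75, 0.17, 0.70 and -0.05. Il10 was -0.17 without lymphoma array 1 and 2.13 without array 2. Ebi3, Capg and Gpr83 kept their direction in both fits. In these 2 fits a single array stands for the group and is assumed to vary like the wild type pair.

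The contrast between the lymphoma arrays was wide for these genes. Foxp3, Il10, Lrrc32, Nrp1 and Il2ra, 5 of 10, differed by more than 1 log2 unit between lymphoma arrays, against 3.91% of all genes. None of the 10 did so between the wild type arrays, against 1.08% of all genes. The direction was not shared: Foxp3 was higher on lymphoma array 2 by 1.98, while Il10 (2.29), Lrrc32 (1.60), Nrp1 (1.53) and Il2ra (1.35) dropped by the amounts given from lymphoma array 1 to lymphoma array 2. Ebi3 (0.01), Ikzf4 (0.03), Ikzf2 (-0.10) and Capg (0.17) were nearly level. The gap is a description of 2 arrays with no test, and whether it lies between tumours, cell mixtures or preparations was not tested.

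**Figure D3:**
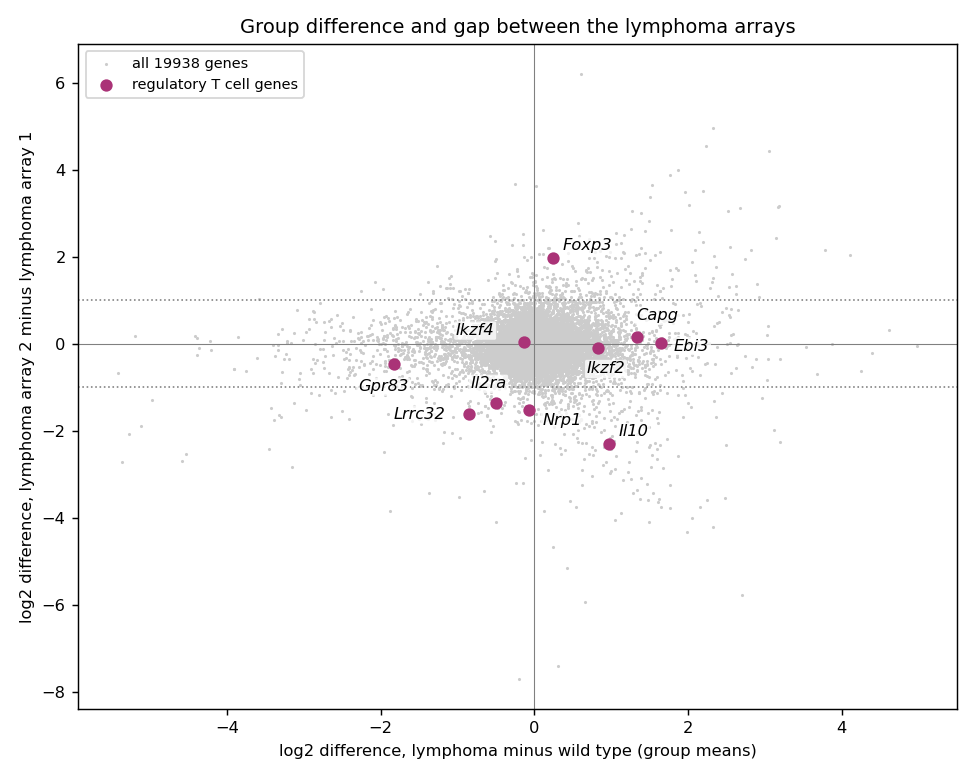
Log2 difference between the groups (horizontal) against the log2 difference between lymphoma arrays 2 and 1 (vertical) for all 19938 genes (grey) and the 10 regulatory T cell genes (purple); dotted lines mark 1 log2 unit. Foxp3 lies above the upper line and Il10, Lrrc32, Nrp1 and Il2ra below the lower one, while Ebi3, Capg and Gpr83 lie between the lines.

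Other surface and effector genes of regulatory T cells, from a list of 20, gave 6 higher, 1 lower and 12 not called of 19 measured, with a median log2 difference of 0.57. Over all genes 1.82% were higher and 2.46% lower, with a median of -0.04, and these shares stand beside every list count below. By size the called genes were the decoy interleukin 1 receptor Il1r2 (3.05, adjusted p = 0.0023 in limma), the chemokine receptor Ccr8 (2.92), the costimulatory receptor Tnfrsf4 (1.73), the signalling adaptor Swap70 (-1.66) and the costimulatory receptor Icos (1.19). Tnfrsf18 (0.94) and the ectonucleotidase Nt5e (0.94) also rose, but neither passed relative to T cell genes (adjusted p = 0.11 and 0.12), nor Nt5e under quantile normalization (0.062). The inhibitory receptors Ctla4 (1.08, adjusted p = 0.15 in limma) and Tigit (1.18, adjusted p = 0.072) did not pass. Both lymphoma arrays were above both wild type arrays for each, as for 20.6% of all genes. The Ctla4 difference was 1.48 without lymphoma array 1 and 0.67 without array 2. Tigit passed with genes below the median level left out (0.048), and was 1.54 without lymphoma array 1 and 0.81 without array 2. Ctla4 had 1856 and 2723 in wild type and 3582 and 6263 in lymphoma. Icos was not called under quantile normalization (adjusted p = 0.052), and with all probe sets tested 3 genes of the list were higher and 0 lower. Relative to T cell genes 4 of the list were called lower, where that scaling called 1961 of all 19938 genes lower.

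In this list too, the lymphoma arrays differed by more than 1 log2 unit for 8 of 19 genes. Of these, 5 were higher on lymphoma array 2 and 3 were lower. The higher ones were the chemokine receptors Ccr6 (by 2.23), Ccr4 (1.10) and Ccr8 (1.08), the costimulatory receptor Tnfrsf9 (1.16) and the surface glycoprotein Cd83 (1.35). Without lymphoma array 1, Ccr6, Tnfrsf9 and Cd83 passed as higher in lymphoma and Itgae, Izumo1r and Entpd1 as lower, and without lymphoma array 2 Ccr4 passed as lower. Ccr6 was the widest, with 309.5 and 1453 in lymphoma and 464 and 439.8 in wild type. The integrin chain Itgae, the folate receptor family member Izumo1r and the ectonucleotidase Entpd1 were lower on lymphoma array 2, like Il2ra. Itgae had 510 and 153 in lymphoma against 330 and 298 in wild type. Izumo1r had 2895 and 1114 against 2693 and 2265. Entpd1 had 1133 and 559 against 1135 and 1163. Tnfrsf18, Nt5e, Ctla4, Tigit, Ccr6, Ccr4, Tnfrsf9, Cd83, Itgae, Izumo1r and Entpd1 were named after their values were seen.

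No gene of the interleukin 2 and STAT5 pathway passed among 11 measured (limma; median 0.08). By size, the feedback inhibitor Socs2 differed by -1.37 (SE 1.03, adjusted p = 0.66) and the transcription factor Stat5a by 0.60 (adjusted p = 0.30). Socs2 had 683 and 316 in wild type and 591 and 55.0 in lymphoma, so lymphoma array 2, low in Il2ra, was also low in Socs2. The list did not share this drop: Socs2 was the 1 gene of 11 with a lymphoma gap over 1 log2 unit. It also differed by more than 1 log2 unit between the wild type arrays. Il2rb, the receptor chain shared with interleukin 15, had 3241 and 2914 in wild type and 3491 and 5313 in lymphoma (difference 0.49, adjusted p = 0.39).

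Of 29 other Ikaros family genes and FOXP3 partners or regulators, 1 rose, 2 fell and 26 did not pass, with a median of -0.05. Among all genes 1.82% rose and 2.46% fell. Batf, an AP-1 factor, rose by 1.97 (adjusted p = 0.0068 in limma). Hdac9, a histone deacetylase, fell by 2.00 (adjusted p = 0.0071) and Lef1, a factor of naive T cells, by 1.30 (adjusted p = 0.030). Relative to T cell genes, 9 genes of this list were called lower, beside 1961 of all 19938 genes. Of 11 genes of the interleukin 10 and 12 families and their receptors, the receptor chain Il12rb2 fell by 1.87 (adjusted p = 0.038 in limma) and no other passed. The list median was -0.18. Relative to T cell genes 5 were called lower, again beside 1961 of all 19938 genes. Il23r, a receptor chain named after its values were seen, had 157 and 3365 in lymphoma against 115 and 66.3 in wild type, a gap of 4.42 log2 units in the direction of that of Foxp3.

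Of 19 genes of TGF-beta activation and its receptors, 1 rose and 2 fell (median -0.12), where 1.82% and 2.46% of all genes did so. Itgb8, the integrin chain that releases TGF-beta held by GARP, rose by 1.45 (adjusted p = 0.039 in limma), with 575 and 805 in wild type and 1532 and 2256 in lymphoma. This call was lost under quantile normalization (adjusted p = 0.083). Nrros, the GARP-like anchor of myeloid cells, fell by 1.72 (adjusted p = 0.0064) and the co-receptor Tgfbr3 by 1.63. Tgfb1, the ligand itself, differed by -0.19 (adjusted p = 0.84), with overlapping groups. Of 13 neuropilin ligands and plexins, Sema4a, a ligand on dendritic and B cells, fell by 1.26 (adjusted p = 0.040 in limma) and no other passed (median 0.11). The Sema4a call was lost with array medians subtracted (0.061). No gene passed among 10 actin capping and gelsolin family genes in limma (median 0.04). By size, Scin, a gelsolin relative, differed by 2.10 (adjusted p = 0.060) and Gsn, gelsolin itself, by -0.77 (adjusted p = 0.079). Relative to T cell genes both passed, Scin at 1.64 (adjusted p = 0.0067) and Gsn at -1.23 (adjusted p = 0.0043). Scin also passed with genes below the median level left out (0.042). It had 83 and 84 in wild type, below the medians of all probe sets on those arrays (142 and 141). In lymphoma it had 216 and 592, a gap of 1.45 log2 units. The difference was 2.83 without lymphoma array 1 and 1.38 without array 2. With all probe sets tested, the calls on Icos, Tnfrsf18, Nt5e, Swap70, Lef1, Il12rb2, Itgb8, Tgfbr3 and Sema4a were lost, with adjusted p-values between 0.064 and 0.099.

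**Figure D4:**
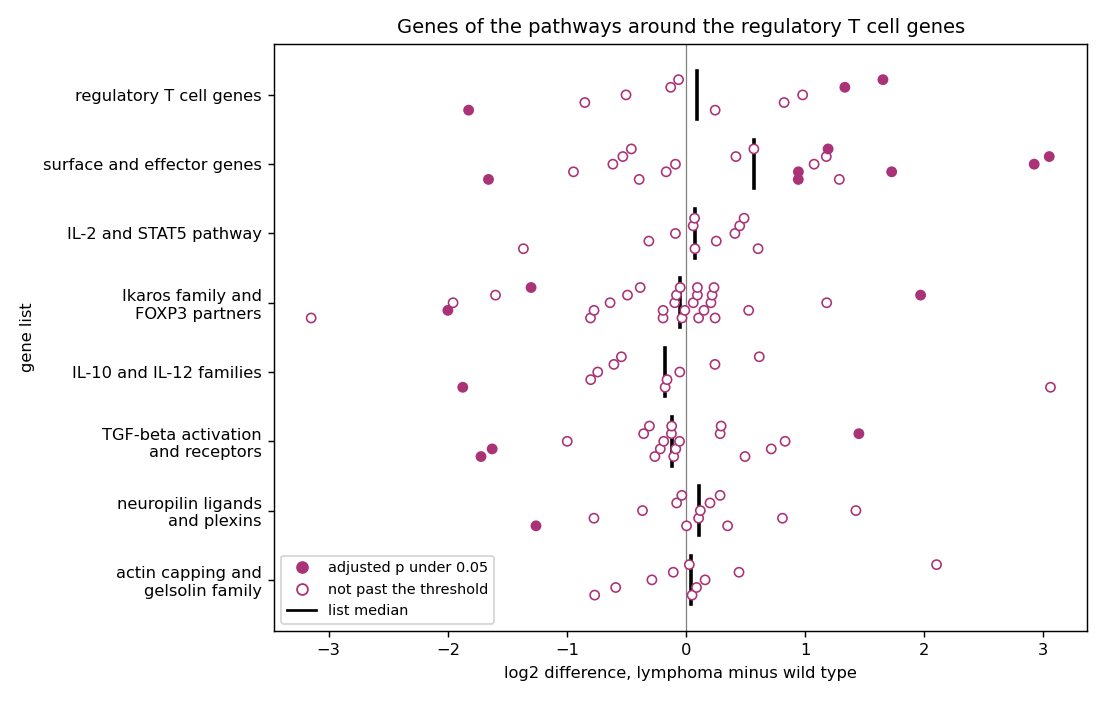
Log2 difference between lymphoma and wild type for each measured gene of the 10 regulatory T cell genes and 7 related lists (filled, adjusted p under 0.05; black bar, list median). The surface and effector list has its median at 0.57, and the other lists have medians between -0.18 and 0.11, before scaling on T cell genes.

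Markers of cell types that can carry these genes differed between the groups. The T cell genes Cd3d, Cd3e, Cd3g and Cd4 had both lymphoma arrays above both wild type arrays, by a mean of 0.46 log2 units, with none called. Among all genes, 20.6% had both lymphoma arrays above and 23.5% had both below. Of the other CD4 T cell markers, Cd2 (0.32) also had both lymphoma arrays above, Cd5 (-0.92, adjusted p = 0.11 in limma, and 0.0038 relative to these T cell genes) had both below, and Cd247 (-0.21) and Cd28 (-0.04) overlapped, all of them named after their values were seen. Scaling on the Cd3 chains and Cd4 moved the median difference of all genes from -0.04 to -0.50. B cell markers were lower, with 7 of 8 called, summed intensities of 12514 to 18742 in wild type and 2633 to 2841 in lymphoma, led by Cr2 (-4.39) and Fcer2a (-4.37). From lymphoma array 1 to 2, Cd79a (519 and 168), Cd79b (660 and 258) and Ms4a1 (385 and 120) dropped. Pax5, Cr2 and Fcer2a were also lower on array 2. Cd22 (652 and 1590) and Blk (189 and 208) were higher on it, so the near-equal lymphoma sums hide these gaps. Of 10 macrophage and monocyte markers 7 were lower, with sums of 10297 to 10557 and 2896 to 4137, led by Adgre1 (-3.22) and Csf1r (-2.51). Of 8 dendritic cell markers 5 were lower, with sums of 3907 to 4509 and 829 to 839, led by Cd209a (-4.40) and Flt3 (-3.19). Plasmacytoid dendritic cell markers, 3 of 5 lower (Ccr9 -2.75, Siglech -2.60), had sums of 2653 to 3239 and 999 to 1142. Plasma cell markers, 3 of 5 lower (Jchain -4.53, Mzb1 -2.43), had sums of 6793 to 11098 and 2703 to 2722. Jchain (519 and 89.5) and Mzb1 were lower on lymphoma array 2 than on array 1. Xbp1 (1811 and 2273), Sdc1 and Tnfrsf17 were higher on it. Cd79a, Cd79b, Ms4a1, Pax5, Cd22, Blk, Xbp1, Sdc1 and Tnfrsf17 were named after their values were seen. No probe set of any kind was at 0 on any array, the lowest value being 2.5. A marker value above 0 therefore does not show that its cell type was present.

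Ebi3 and Capg were thus higher on the arrays on which B cell, macrophage and dendritic cell markers were lower. Gpr83 fell on the same arrays, and the part of the cell mixture in any of these differences was not tested. CD8 T cell markers (2 measured, sums of 692 to 1241 and 385 to 424) and the markers of neutrophils, platelets, endothelium and erythroid cells had no called gene in limma. Of 6 natural killer cell markers, Nkg7 rose by 0.81 and Klrk1 fell by 1.25, with sums of 3030 to 3372 and 5250 to 5471. Nkg7 made up most of these sums, with 2447 and 2270 in wild type and 4052.5 and 4212 in lymphoma. Of the 6 markers, 3 had positive and 3 had negative differences. The call on Nkg7 was lost in 3 settings other than leaving out an array, among them the scaling on T cell genes (adjusted p = 0.19), that on Klrk1 in 4, among them quantile normalization (0.082), and that on Jchain in 2, among them a robust variance trend (0.24). In these bulk samples, fewer cells of a type and less RNA per cell cannot be told apart, so neither the number of regulatory T cells nor the state of the tumour cells is given by these values. Tet2 had 980 and 1016 in wild type and 596 and 399 in lymphoma (difference -1.03, adjusted p = 0.077 in limma, and 0.0029 relative to T cell genes). The sources used here do not say where its probes lie relative to the trap, so the value is a limited check of the genotype label.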

How the data were processed

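RNA from 4 samples was labelled with biotin and read on single-channel Affymetrix arrays, 1 per sample. The deposited values are intensity values on a linear scale, 1 per probe set and array, made with Affymetrix Expression Console per the submitters' processing notes. The sources used here do not give the summarisation, background correction or normalization, and no detection calls were used, so changes of dim genes can be understated. Log2 was taken with no offset or filter. Of 35556 probe sets, 21789 had 1 gene symbol in GEO's platform annotation, 1621 had several and 12146 were not listed. For 999 genes with several probe sets, the one with the highest mean log2 value was used, leaving 19938 genes.

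Groups were compared in limma 3.58.1 (R 4.3.3) with a variance trend, two-sided, with Benjamini-Hochberg adjustment over all genes. A call is an adjusted p under 0.05. An exact permutation test of 2 against 2 arrays cannot go below 0.33. The procedure was tested on simulated data. The members and lists were chosen with earlier results of these data known. The members were named in every case. From each list the called genes were named by size, up to 5, or the 2 with the largest difference where none was called, and up to 2 called genes of each marker list. Other names are marked in the text as named after their values were seen. The alternatives tried were scaling on Cd3d, Cd3e, Cd3g and Cd4, array medians subtracted, quantile normalization, filters on low levels, an offset of 16, other variance models, array weights, averaging of probe sets, testing all probe sets, a replicate block, leaving out each array and other thresholds. The precision is limited by the number of arrays. Figures were drawn with matplotlib 3.10.9. Il1rl1, Il2rg, Jak3 and Tcf7 of the lists are not analysed here.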

Additional observations from a re-analysis of the deposited data

How the results depend on the processing

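The count of 2 genes higher and 1 lower among the 10 held under all settings of normalization, scaling, offset, variance model, array weights, averaging and replicate block. It was 3 higher with genes below the median level left out or at an adjusted p under 0.10. It moved to 1 higher with all probe sets tested and to 0 higher at an adjusted p under 0.01, and leaving out arrays gave between 0 and 4 higher and between 0 and 4 lower. Ebi3, Capg and Gpr83 kept their sign throughout. Hdac9, Il12a and Klrk1 were not tested under 1 or both filters on low levels, which left them out. Foxp3 was -0.22 relative to T cell genes and Nrp1 0.014 with array medians subtracted. Leaving out arrays gave -0.75 to 1.24 for Foxp3, -1.18 to 0.17 for Il2ra, -0.38 to 0.13 for Ikzf4, -0.83 to 0.70 for Nrp1 and -0.17 to 2.13 for Il10. It gave -3.08 to 0.35 for Socs2, -1.04 to 0.70 for Itgae, -1.15 to 0.23 for Izumo1r, -0.55 to 1.69 for Ccr6, -0.37 to 0.046 for Il27 -0.54 to 0.17 for Tgfb1, -0.26 to 1.09 for Cd83, -0.18 to 0.11 for Cd28 and -0.58 to 0.17 for Cd247. The scaling on T cell genes put Cd3e at -0.10, Cd3g at -0.015 and Cd4 at -0.049 by construction, Cd2 at -0.14 and Cd83 at -0.045, and subtracting array medians put Cd28 at 0.039. The scaling on T cell genes gave 243 genes higher and 1961 lower over all genes, against 362 and 490, and testing all probe sets gave 120 and 244 of these genes. Without either wild type array every named call on a list gene was lost. Leaving out arrays gave 0 to 1057 genes higher and 0 to 843 lower. The labels number the samples alike in both groups without saying that a number marks a shared animal or batch. With the replicate block 429 genes were higher and 555 lower, and 2 and 1 of the 10 (the paired deviations correlated at 0.23 over genes), and adjusted p-values were 0.059 for Sema4a, 0.023 for Ctla4, 0.026 for Tigit and 0.038 for Scin, which crossed the threshold. With 2 arrays a group, depth of signal over background is unknown and the spread of each gene has 2 residual degrees of freedom. To these limma added 4.24 prior degrees of freedom drawn from all genes, so SEs and p-values lean on that shared spread. The cause of these shifts was not tested.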
